A study of Homo sapiens with 18 samples.

Results

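The H3K27ac regions gained after maltonis are stretches of the NB4 genome that carried an acetylation peak in every maltonis-treated library and in no untreated one. They were chosen by their H3K27ac calls: the peaks of the 6 H3K27ac lists were merged where they shared at least 1 bp on chromosomes 1 to 22, and a region was kept when all 3 maltonis lists and 0 of the 3 untreated lists had a peak in it. This gave 597 gained regions among 36228 merged regions (1.65%). The mirror-image set, called in all 3 untreated lists and in no maltonis list, held 2176 lost regions (6.01%), and 19504 regions (53.8%) were called in all 6 lists.

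NB4 is an established human acute promyelocytic leukemia line. The cells were exposed to 10 µM maltonis, a molecule derived from maltol, for 24 h or were left untreated, and chromatin was immunoselected for H3K4me3, H3K9me3 and H3K27ac. Each mark had 3 libraries per condition, described by the study as biological triplicates, so 18 libraries entered the analysis. All samples came from the same cell line, and no second line was examined here. The promyelocyte markers could not be checked, because an annotation of hg19, the build named in the submitters' processing notes, was not used here and the peak lists name no genes. All positions below are hg19 coordinates counted from 1, and the genes they lie in were not analysed here.

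Acetylation of lysine 27 of histone H3 marks active promoters and enhancers. Trimethylation of lysine 4 is concentrated at the start sites of active or poised genes, so an H3K27ac region without it is often an enhancer. Trimethylation of lysine 9 is the classical mark of silent heterochromatin, which covers repeats and transposable elements.

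The H3K27ac lists did not reach down to the same strength. The lowest island score, the epic2 measure of how improbable the reads of a region are, was 36.2 to 39.9 in the untreated lists and 27.1 to 32.7 in the maltonis lists, so a weak region could be listed after treatment and be missing before it. Reads inside H3K27ac peaks overlapped between conditions, with 19449049 to 20340061 in untreated and 17974940 to 20773316 in maltonis-treated libraries. Of the 597 gained regions, 317 (53.1%) reached a score of 39.9, the highest of the 6 lowest scores, in all 3 maltonis lists, and 26 (4.36%) reached it in none of them. When every list was restricted to peaks at or above that score and merged again, 337 gained regions were found. The part of this difference in the lists in the gain was not tested further, and the results on the other marks are given for the restricted set as well.

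**Figure D1:**
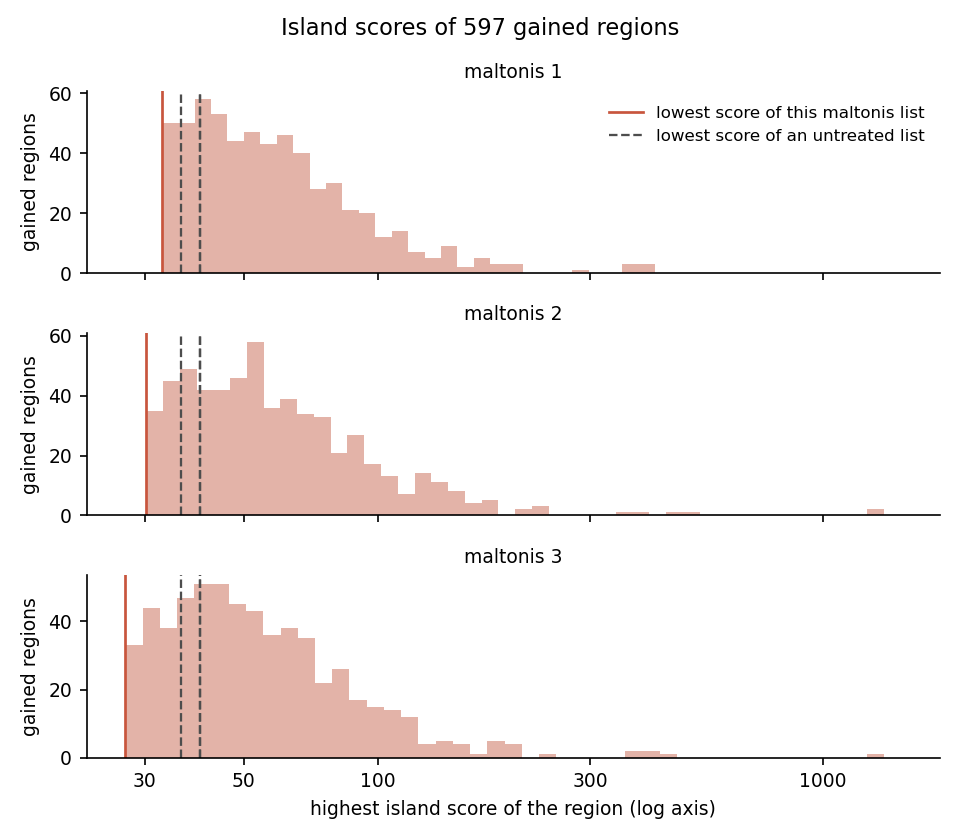
Number of gained regions (vertical axis) by the highest island score of the region (horizontal, log axis), with 1 panel per maltonis list. The solid line is the lowest score in that list and the dashed lines are the lowest scores of the 3 untreated lists, a pair of which nearly coincide. Many gained regions lie between or close to these lines, and a few reach scores above 300.

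Gained regions were narrow and held few reads. Their merged width had a median of 3000 bp, from 400 to 13600 bp, against 3800 bp for lost regions and 8400 bp for regions of all 6 lists. The median read count per region was 85 in maltonis 1, 90 in maltonis 2 and 81 in maltonis 3, and counts spanned 29 to 413. The medians were therefore similar in the 3 treated libraries and below the median peak of each list (184, 184 and 161 reads). Single regions could differ more between libraries. Per kb of called length the medians were 36.5, 42.2 and 42.1 reads, and lost regions had 37.4, 37.5 and 37.7 reads per kb in the 3 untreated lists. Ranked within their own lists, gained regions sat at a median percentile of 24.1, 27.9 and 28.6 by island score, where 50 is the middle of the list. Most held under 100 reads on average (393 of 597, 65.8%) and 8 held over 300. Since these values come from the libraries that chose the regions, they are given as a description without a test.

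**Figure D2:**
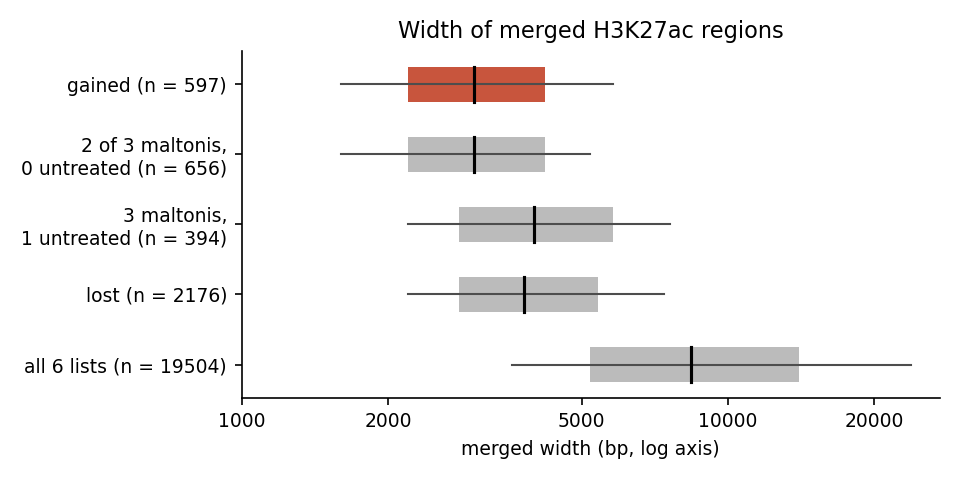
Merged width of H3K27ac regions (horizontal, bp, log axis) for gained regions and 4 other classes of calls. Boxes span the 25th to 75th percentile, the black line is the median and the thin line spans the 10th to 90th percentile. Gained regions (median 3000 bp) are narrower than regions of all 6 lists (median 8400 bp).

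The borders of a gained region differed between the 3 maltonis lists. The stretch called in all 3 maltonis lists had a median of 1400 bp, 50% of the merged width, and 11 regions (1.84%) had no base in common although each list had a peak in them. More than 1 peak fell into 13, 20 and 27 of the gained regions in maltonis 1, 2 and 3.

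The strongest gained regions by mean percentile of the score stood far above the median region. The first was chr1:53832601-53837200, with 275, 327 and 358 reads in maltonis 1, 2 and 3 and island scores of 382, 1316 and 1324. The next was chr1:95042401-95050800, with 400, 389 and 311 reads. The third, chr1:12005401-12011400, had the highest mean count of the 10 strongest, from 378, 403 and 413 reads. These 3 regions all lie on chromosome 1. The other 7 of the 10 strongest were chr12:32073601-32077600, chr8:29299201-29304600, chr6:68596001-68601800, chr16:11326601-11334200, chr16:85168601-85171600, chr3:5183201-5187400 and chr10:16946001-16948200, with mean counts from 169 to 349 reads. An H3K9me3 peak touched 7 of the 10 in at least 1 untreated library. Of all 597 gained regions, 175 (29.3%) were touched in at least 1 of the 6 H3K9me3 libraries. The 10 were 2200 to 8400 bp wide, against a median of 3000 bp over all gained regions, and the part of width was not tested.

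The 5 widest gained regions differed in how evenly the libraries covered them. The widest, chr13:32798601-32812200, spanned 13600 bp and held 301, 225 and 92 reads, of which only 2400 bp were called in all 3 lists. In chr2:145562001-145575200, 13200 bp wide, the common stretch was 800 bp and the counts were 253, 219 and 133. Maltonis 3 was the lowest library in both regions. The other wide regions were chr10:90166801-90179400 (307, 264 and 400 reads), chr10:89729001-89739800 (221, 256 and 253 reads) and chr1:235926601-235937200 (207, 187 and 173 reads).

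At the other end, the gained regions nearest to the calling limit had island scores just above the lowest value of the maltonis 3 list. They were chr1:38366401-38368800 (75, 88 and 55 reads), chr9:2107801-2110600 (78, 78 and 58 reads), chr18:468601-471400 (93, 101 and 52 reads), chr9:79156601-79157800 (44, 49 and 42 reads) and chr17:32640601-32642600 (57, 63 and 43 reads). All 5 scored 27.2 to 27.6 in maltonis 3. Just outside the rule, 394 regions had a peak in all 3 maltonis lists and in 1 untreated list, with untreated scores of 36.2 to 123 and a median of 46.5. An example is chr2:103463801-103466600, with 57 reads in untreated 1 and 63, 60 and 86 reads in the maltonis libraries. The others with the lowest untreated scores were chr4:55573201-55576800 (68 reads in untreated 1 against 95, 70 and 99) and chr5:171701801-171705400 (82 against 98, 67 and 78). A further 656 regions were called in 2 of 3 maltonis lists and in no untreated list. The strongest of these were chr2:145499001-145508400 (221 and 135 reads in maltonis 2 and 3), chr1:92796001-92803200 (201 and 101 reads in maltonis 1 and 2) and chr7:81333001-81338600 (105 and 161 reads in maltonis 1 and 3).

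Most gained regions had no other gained region within 50 kb. Another gained region lay within 50 kb of 84 of them (14.1%), against 29.5% of the more numerous lost regions that had another lost region so near, and the other 513 stood alone. The median gap between neighbouring gained regions on a chromosome was 2.36 Mb. Chained at gaps of at most 50 kb, they formed 23 pairs, 8 groups of 3, 2 groups of 4 and 1 group of 6. The sets differ in size, so these shares are not comparable as a measure of clustering. The share under a random placement was not computed, so whether gained regions cluster was not tested.

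The group of 6 occupied 178200 bp at chr10:90001201-90179400, and its regions grew wider along the chromosome, from 4400 to 12600 bp. Its mean counts ran from 98.3 to 324 reads per region over the 3 maltonis libraries. The fifth, chr10:90129001-90138000, was the most evenly called, with 250, 332 and 269 reads and 7200 of its 9000 bp in all 3 lists. The fourth, chr10:90116601-90125200, was the least even, with 118, 269 and 61 reads. All 6 touched an H3K9me3 peak in at least 2 untreated and 2 maltonis libraries, and none touched an H3K4me3 peak. The groups of 4 were chr13:32749201-32812200, which includes the widest region, and chr12:32180401-32251000, where each region was 2200 to 3200 bp wide and had 70 to 105 reads per library. Neither of these groups touched H3K4me3, and each touched H3K9me3 in 2 of its 4 regions, in at most 1 library per condition.

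By chromosome, the share of merged regions that were gained ran from 0.892% on chromosome 6 to 2.87% on chromosome 18. Chromosome 1 held 82 gained regions, 13.7% of them against 8.84% of all merged regions, and chromosome 8 held 27 (2.36% of its merged regions). Chromosome 21 held the fewest, 5 regions. Copy number differences of the line along its chromosomes were not analysed here, and these shares were not tested.

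**Figure D3:**
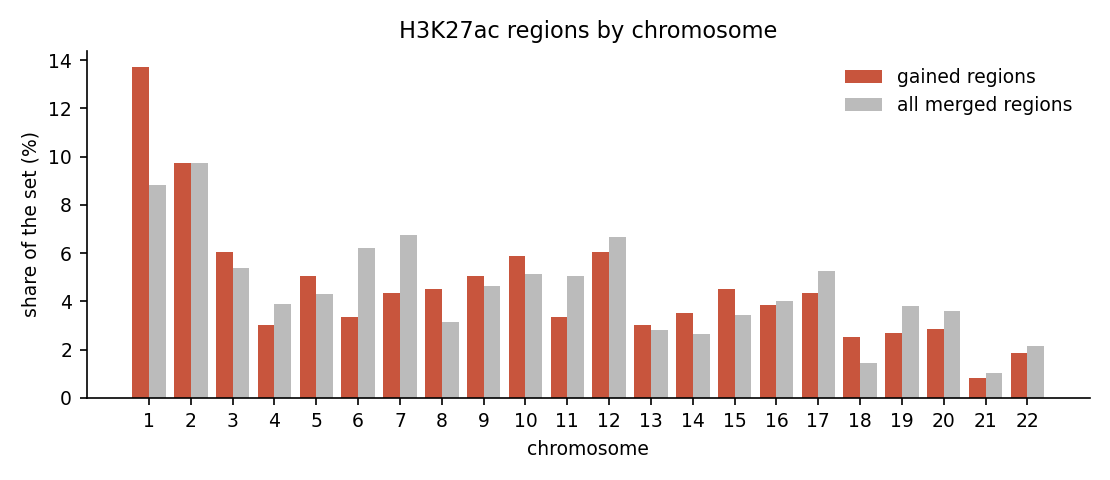
Share of the 597 gained regions and of all 36228 merged H3K27ac regions on each chromosome (vertical axis, percent, by chromosome on the horizontal axis). Chromosome 1 holds 13.7% of gained and 8.84% of merged regions, and chromosome 6 holds 3.35% and 6.19%.

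Most gained regions lay near H3K27ac that untreated cells already had. The nearest peak of any untreated list was at a median distance of 9000 bp, 526 regions (88.1%) had one within 50 kb, and 6 (1.01%) abutted one with no base between. A region of all 6 lists lay within 50 kb of 496 gained regions (83.1%) and of 72.7% of lost regions. Regions of all 6 lists were dense, with a median gap of 25800 bp between neighbours on a chromosome. A lost region lay within 50 kb of 38 gained regions (6.37%). The shares of all merged H3K27ac regions or of random positions with such neighbours were not computed. An H3K4me3 region called in all 6 libraries lay within 50 kb of 368 gained regions (61.6%) and of 49.5% of lost regions, at a median distance of 31.4 kb.

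H3K4me3 was found at few gained regions, but at more of them after maltonis. A peak touched 34, 31 and 33 gained regions in the untreated libraries (32.7 ± 1.53, SD, n = 3) and 55, 51 and 51 in the maltonis libraries (52.3 ± 2.31). The 2 conditions did not overlap, and the maltonis mean was 1.60 times the untreated mean. The exact two-sided permutation test gave p = 0.1, the smallest that 3 libraries against 3 allow, and an adjusted p of 0.17 over the 17 exact tests run. The share of the bases of gained regions under H3K4me3 went from 1.00% ± 0.0398 to 1.78% ± 0.174 (SD, n = 3), again without overlap. The number of regions touched went the other way over all merged H3K27ac regions. Of these, 38.0% touched an H3K4me3 peak in untreated and 35.4% in maltonis-treated libraries. For lost regions the mean number touched fell from 382 to 143. The share of bases under H3K4me3, however, also rose over all merged regions, from 7.25% ± 0.0823 to 7.86% ± 0.0564 (SD, n = 3), without overlap. The ratio was 1.08 there and 1.78 in gained regions. The H3K4me3 lists themselves had fewer peaks after maltonis (a mean of 17100 against 15653) that covered more bases (23.6 against 25.2 Mb). Set against the regions of all 6 H3K27ac lists that touched an H3K4me3 peak in the same library, gained regions with one numbered 2.62 per 1000 before and 4.31 per 1000 after treatment (exact permutation p = 0.1).

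The neighbouring classes of H3K27ac calls are given beside the gained regions, and the difference between classes was not tested. Among regions called in 3 maltonis lists and 1 untreated list, 28.7 ± 0.577 touched H3K4me3 per untreated library and 36.7 ± 4.04 per maltonis library (SD, n = 3), without overlap. Regions called in only 2 of 3 maltonis lists had lower counts after treatment, 33.0 ± 3.00 against 27.7 ± 1.15, as did regions called in 1 of 3, with 51.3 ± 4.93 against 40.0 ± 4.58. Regions called in 3 maltonis and 2 untreated lists overlapped between conditions (67.3 ± 8.08 and 71.0 ± 4.36). In the order given, these classes held 394, 656, 2368 and 570 regions, so their counts are not comparable between classes. In untreated libraries a mean of 7.28%, 5.03%, 2.17% and 11.8% of them touched H3K4me3, against 5.47% of gained regions. A low share with H3K4me3 was thus not particular to gained regions. In the gained regions found at a common lowest island score the difference between conditions was 14.7 regions, against 19.7 in the full set, with p = 0.1 in the exact permutation test in both.

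**Figure D4:**
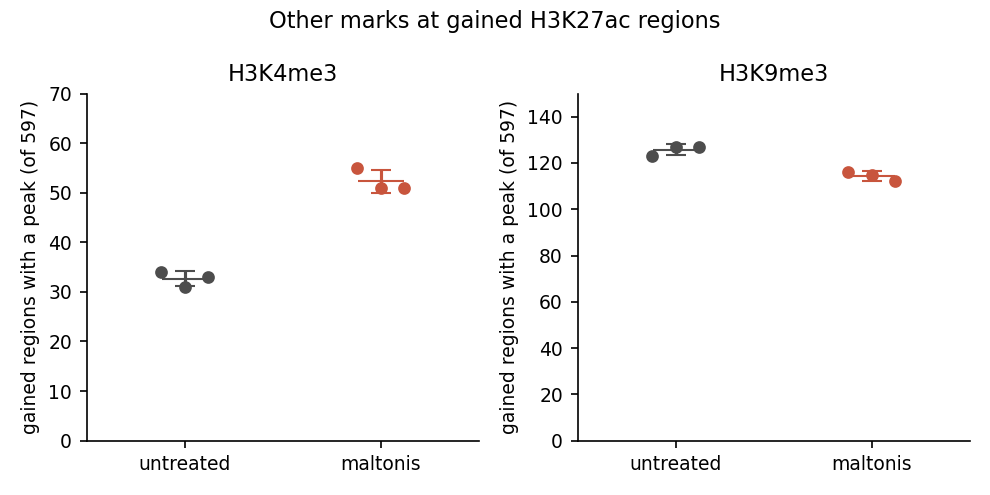
Number of the 597 gained regions that touch a peak of H3K4me3 (left) or H3K9me3 (right) in each library, by condition. Points are libraries, and the horizontal mark and bar are the mean and SD of 3. H3K4me3 counts are 31 to 34 in untreated and 51 to 55 in maltonis-treated libraries, and H3K9me3 counts are 123 to 127 and 112 to 116.

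The H3K4me3 peaks at gained regions were weak ones. Their median fold enrichment was 3.16 to 3.49 in the untreated and 3.18 to 3.37 in the maltonis libraries, their median width was 710 to 885 bp and 720 to 749 bp, and 39.4% to 58.2% of them per library belonged to the weakest 25% of their list by −log10 q. When only the strongest 75% of each H3K4me3 list was used, 16, 19 and 21 gained regions touched a peak in the untreated libraries and 24 in each of the 3 maltonis libraries. The conditions still did not overlap, but the difference fell from 19.7 to 5.33 regions.

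Narrow gained regions held most of the H3K4me3. Among the 152 regions of at most 2200 bp, 26, 27 and 25 touched a peak in the untreated and 37, 37 and 39 in the maltonis libraries. In the other 3 width classes of similar size, at most 8 regions did so in any library. The 44 regions with H3K4me3 in at least 2 maltonis libraries had a median width of 1600 bp and 57.6 reads per kb of H3K27ac, against 3200 bp and 39.4 reads per kb for the 499 regions that H3K4me3 touched in no library. They were also farther from H3K27ac of all 6 lists, at a median of 32.5 kb against 11.4 kb.

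Region by region, 499 gained regions (83.6%, against 51.2% of all merged regions) had no H3K4me3 peak in any library and 18 (3.02%, against 29.8%) had one in all 6. More maltonis than untreated libraries had a peak at 54 regions (9.05%, against 5.75% of all merged regions), and fewer did at 18 (3.02%, against 11.1%). A peak in all 3 maltonis and no untreated library was found at 5 gained regions (0.838%), where 0.359% of all merged H3K27ac regions had that pattern. The reverse pattern was found at none, where 0.817% of merged regions had it. In the 18 regions with H3K4me3 throughout, the median fold enrichment overlapped between conditions (4.01 ± 0.275 untreated, 3.97 ± 0.152 maltonis, SD, n = 3). The median width of H3K4me3 there was 922, 1065 and 908 bp in untreated and 1162, 1302 and 1329 bp in maltonis-treated libraries, without overlap (exact permutation p = 0.1). Peaks of the whole H3K4me3 lists were also wider after maltonis, with medians of 1520 to 1573 bp against 1257 to 1291 bp in untreated libraries.

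In 5 regions, peaks of both marks were listed in all 3 maltonis libraries and in no untreated one. They were chr20:30554401-30557600, chr15:51972601-51974600, chr19:2016001-2017200, chr19:521601-524800 and chr19:41881801-41883000, so 3 of them lie on chromosome 19. A missing peak is not absence of the mark. At chr20:30554401-30557600, H3K27ac held 71, 167 and 92 reads in maltonis 1, 2 and 3, and the H3K4me3 fold enrichment was 4.93, 5.25 and 4.83. This was the strongest H3K4me3 of the 5. At chr15:51972601-51974600 H3K27ac held 93, 83 and 76 reads, with H3K4me3 enrichments of 3.96, 4.59 and 4.07. The region chr19:2016001-2017200, 1200 bp wide, had 52, 49 and 51 H3K27ac reads and H3K4me3 enrichments of 3.97, 4.21 and 4.58. It touched a merged H3K4me3 region called in all 6 libraries, whose untreated peaks ended outside it. The other 2 on chromosome 19 had H3K4me3 enrichments of 2.68 to 3.56. None of the 5 touched H3K9me3 in any library.

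Around the gained regions, H3K4me3 covered more bases after maltonis. Within 50 kb, gained regions left out, it covered 1.001, 0.966 and 0.978 Mb of 54.9 Mb in untreated libraries and 1.111, 1.127 and 1.108 Mb in maltonis-treated ones. All maltonis values were above all untreated values (mean ratio 1.14, exact permutation p = 0.1), while H3K4me3 over all autosomes had a ratio of 1.07. The neighbourhood thus held 4.16% ± 0.0367 of all autosomal H3K4me3 bases before and 4.43% ± 0.0460 after treatment (SD, n = 3, exact permutation p = 0.1, adjusted 0.17). By distance, the ratio was 1.20 within 5 kb, 1.15 from 5 to 20 kb and 1.12 from 20 to 50 kb, without overlap of the conditions in any of the 3 bins. Around lost regions the same measure was 2.92 Mb in both conditions. Inside H3K27ac regions of all 6 lists, H3K4me3 covered 8.95% ± 0.107 of bases before and 9.94% ± 0.0856 after treatment (SD, n = 3). This was a ratio of 1.11, without overlap of the conditions. Such regions lay within 50 kb of 83.1% of gained regions, and their part in the neighbourhood values was not tested.

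H3K4me3 covered a smaller share of the bases inside gained regions than over the whole 50 kb around them. It covered 0.977% to 1.96% of their bases and 1.76% to 2.05% of the bases within 50 kb, and the inside was lower in 6 of 6 libraries (mean difference −0.519 percentage points, exact sign-flip permutation test p = 0.0312, adjusted 0.17). The 6 libraries look at one set of regions, so this p measures only the spread between libraries. Within the nearest 5 kb alone, H3K4me3 covered 1.03%, 0.997% and 1.04% of bases in untreated and 1.21%, 1.26% and 1.20% in maltonis-treated libraries. The inside of gained regions was close to this in untreated libraries (0.977%, 0.978% and 1.05%) and above it in all 3 maltonis libraries (1.96%, 1.61% and 1.78%).

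**Figure D5:**
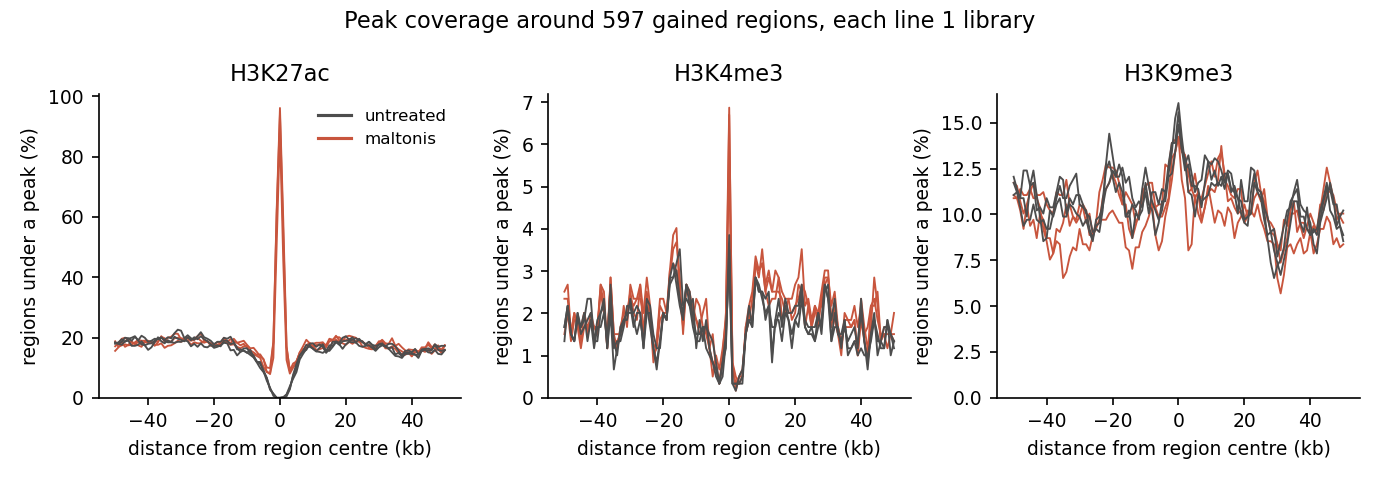
Share of the 597 gained regions under a peak (vertical axis, percent) by distance from the region centre (horizontal axis, kb) for H3K27ac, H3K4me3 and H3K9me3, with 1 line per library. H3K27ac rises from 0% to a mean of 92.8% at the centre by the choice of regions, H3K4me3 peaks there at 3.52% in untreated and 6.42% in maltonis-treated libraries, and H3K9me3 reaches 15.5% and 14.2%.

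H3K9me3 touched gained regions in untreated cells about as often as H3K27ac regions in general. The mean share was 21.0% of gained regions, 21.8% of all merged regions and 27.3% of regions of all 6 lists. A peak touched 123, 127 and 127 gained regions in untreated libraries (125.7 ± 2.31, SD, n = 3) and 116, 115 and 112 after maltonis (114.3 ± 2.08). The conditions did not overlap, and the exact permutation test gave p = 0.1 (adjusted 0.17). The mean was 0.910 times the untreated mean, and over all merged H3K27ac regions the ratio was 0.936, with the number of H3K9me3 peaks on the autosomes falling from a mean of 34431 to 29554. At a common lowest island score the difference was −6.33 regions per library, against −11.3 in the full set (exact permutation p = 0.1 in both). The share of bases of gained regions under H3K9me3 overlapped between conditions (15.6% ± 0.991 and 15.1% ± 0.867). Fewer gained regions thus touched H3K9me3 after treatment, while a change in the covered share was not detectable with these libraries. For lost regions the ratio of the numbers touched was 0.848, and for regions of all 6 lists 0.957. For regions called in 3 maltonis and 1 or 2 untreated lists it was 0.875 and 0.912. Conditions overlapped for regions called in only 2 or 1 of 3 maltonis lists (0.986 and 0.977). The difference between classes was not tested.

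The H3K9me3 share was higher in gained regions than around them. It covered 14.1% to 16.2% of their bases and 8.62% to 10.4% of the bases within 50 kb, higher inside in 6 of 6 libraries by 5.52 ± 0.529 percentage points (SD, n = 6, exact sign-flip permutation p = 0.0312, adjusted 0.17). Lost regions had 6.92% to 8.76%, lower than gained regions in 6 of 6 libraries by 7.23 ± 0.755 points (exact sign-flip permutation p = 0.0312, adjusted 0.17). Regions of all 6 H3K27ac lists had a mean of 11.4% before and 12.1% after treatment. The H3K9me3 peaks that touched gained regions had a median percentile of 66.7 to 74.6 by island score in their lists. They held 75.5 to 103 reads, where the median peak of those lists held 58 to 72. They were also wider, with medians of 5000 to 5600 bp against 3800 to 4600 bp in the lists. The part of width in this was not tested, and H3K9me3 peaks touching other H3K27ac regions were not compared. In 5 of the 10 strongest gained regions an H3K9me3 peak was present in at least 2 untreated libraries, and in 3 of these it was present in all 3. Over all 597 gained regions, 121 (20.3%) had one in at least 2 untreated libraries. At chr1:95042401-95050800 the touching H3K9me3 peaks held 419, 385 and 400 reads in untreated and 353, 225 and 197 reads in maltonis-treated libraries. At chr12:32073601-32077600 they held 227, 852 and 834 reads before and 1875, 795 and 1538 after treatment. At chr16:85168601-85171600 peaks in untreated 1 and 3 held 48 and 39 reads, and those in the 3 maltonis libraries 98, 133 and 46. At chr6:68596001-68601800 the counts were 240, 259 and 256 against 234, 200 and 193. The counts were lower after maltonis without overlap at chr1:95042401-95050800 and chr6:68596001-68601800. They overlapped between conditions at chr12:32073601-32077600 and chr16:85168601-85171600. These counts move with the length called and are not normalised, so no direction was read from them.

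Individual switches of H3K9me3 were rare. No library had an H3K9me3 peak at 422 gained regions (70.7%, against 65.8% of all merged regions), and all 6 had one at 71 (11.9%, against 11.3%). Of the 121 regions with H3K9me3 in at least 2 untreated libraries, 8 had it in no maltonis library. The pattern of all 3 untreated and no maltonis library was seen at 2 gained regions (0.335%), where 0.776% of all merged H3K27ac regions had it, and the opposite pattern at none, where 0.607% had it. The 2 were chr19:14030601-14033400, with 34, 41 and 36 H3K9me3 reads in untreated libraries and 48, 80 and 74 H3K27ac reads after maltonis, and chr15:58661801-58664600, with 51, 29 and 37 H3K9me3 reads and 100, 68 and 68 H3K27ac reads. All 6 of these H3K9me3 counts were below the 58 to 72 reads of the median peak of an H3K9me3 list. In the 71 regions with H3K9me3 throughout, the median count of the touching peaks was 149, 153 and 164 in untreated and 138, 158 and 114 in maltonis-treated libraries, which overlapped (exact permutation p = 0.3).

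Within 50 kb of gained regions H3K9me3 covered 5.44, 5.50 and 5.72 Mb in untreated and 5.44, 5.57 and 4.73 Mb in maltonis-treated libraries. The conditions overlapped (exact permutation p = 0.5), and only maltonis 3 stood below the others. That library also had the fewest reads in H3K9me3 peaks, 2595814 against 3133840 to 3366296 in the other 5. Without it, the mean difference shrank from −0.304 to −0.0461 Mb.

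Read counts of H3K9me3 regions called in all 6 libraries gave no call near gained regions. Of the 546 such regions within 50 kb, 97 of which overlapped a gained region, edgeR's quasi-likelihood test called 0 as increased and 0 as decreased after maltonis (adjusted by Benjamini-Hochberg to 0.01 or less, with a log2 change in reads of 0.58 or larger up or down), where 0.253% and 0.0141% of all 14226 tested regions were called. At an unadjusted p below 0.05, 48 had more (8.79%, against 8.6% of all tested) and 32 had fewer reads (5.86%, against 5.47%). DESeq2 called 5 with more (0.916%, against 0.977%) and 1 with fewer reads (0.183%, against 0.309%). The overlapping region with the lowest p was chr10:37513601-37682600, with 2108, 2140 and 2224 reads in untreated and 3046, 2873 and 2602 in maltonis-treated libraries. Its log2 fold change of 0.51 ± 0.04 (SE, edgeR adjusted p = 0.000443) stayed under the size criterion, and with the called length as an offset it was 0.17 (adjusted p = 0.377).

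Considered together, 347 gained regions (58.1%) touched neither H3K4me3 nor H3K9me3 in any of the 12 libraries of those marks, 98 (16.4%) touched H3K4me3 and 175 (29.3%) touched H3K9me3 in at least 1 library. Over all merged H3K27ac regions these shares were 48.8% and 34.2%. Both marks in at least 2 maltonis libraries each were found at 5 regions (0.838%).

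The H3K27ac regions of all 6 lists that neighboured gained regions are described last. The same libraries chose the gained regions, so nothing can be read from the direction, shares or p-values of these neighbours. The same holds for the bases under H3K27ac around gained regions. Of 1070 H3K27ac regions of all 6 lists within 50 kb, edgeR called 201 with more reads (18.8%, against 8.18% of all 20018 tested). It called 109 with fewer reads (10.2%, against 19.2%). With the called length as an offset the calls were 83 (7.76%, against 5.88% of all tested) and 9 (0.841%, against 2.29%), and the median log2 fold change over all tested regions moved from −0.01 to 0.16. The median of the neighbours was 0.16 without and 0.23 with the offset. The neighbour with the largest increase was chr1:87639601-87654600, 4800 bp from a gained region, with 187, 161 and 203 reads in untreated and 1308, 1451 and 1391 in maltonis-treated libraries. Its called length was 3200 to 4600 bp in untreated and 12200 to 13400 bp in maltonis-treated libraries. Its log2 fold change was 2.96 ± 0.08 (SE, edgeR adjusted p = 7.57e-09) and 1.32 with the length offset. At chr17:76980801-76985000, 1800 bp from a gained region, counts were 107, 99 and 100 in untreated and 438, 479 and 449 in maltonis-treated libraries, a log2 fold change of 2.20 ± 0.11 (edgeR adjusted p = 3.07e-07). At chr1:182447801-182464000, 32000 bp away, they were 204, 239 and 240 against 1103, 1138 and 1008, but the log2 fold change of 2.30 became 0.16 with the offset (adjusted p = 0.478). The 3 neighbours with the largest decreases, chr22:24819401-24834600, chr11:119576001-119588400 and chr20:25199001-25214400, lay 37800 to 45800 bp away and had log2 fold changes of −2.24 to −2.14, which were −0.38 to −0.12 with the offset. Bases under H3K27ac within 50 kb overlapped between conditions (9.17 ± 0.360 and 8.75 ± 0.288 Mb, SD, n = 3), while over all autosomes they went from 221 ± 6.19 to 177 ± 6.93 Mb.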

How the data were processed

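ChIP-seq peak lists of 18 NB4 libraries (3 marks, 3 per condition) were used, grouped by sample title. Per the labels and the methods of the study, reads were aligned to hg19 with BWA and handled with SAMtools, and peaks were called by the authors per library, with MACS2 for H3K4me3 and with epic2, an implementation of SICER, for H3K9me3 and H3K27ac. Versions and caller parameters are not given in the sources used here. The deposited values were a read count (not normalised) and an island score per epic2 region, and a fold enrichment (ratio over the caller's background) and a −log10 q per MACS2 peak, which describe a peak within its own list. The deposited counts belong to borders that differ between libraries, so they move with the length called. Total depth per library was not used here. The reads in peaks, known for 2 of the marks, depend on how much was called and do not measure total depth. The H3K4me3 lists hold no counts.

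Regions were merged at 1 bp of overlap, with epic2 ends extended to the full 200 bp window. A mark touched a region when a peak shared at least 1 bp with it. For values per library an exact permutation test (two-sided) ran over 20 assignments, whose smallest p is 0.1, so that none could reach 0.05. Differences within libraries were tested by exact sign flips, and Benjamini-Hochberg adjustment covered all 17 tests. These p-values measure only the spread between libraries. Read counts were summed over regions of all 6 lists (chromosome X included) and tested with edgeR 4.0.16 (TMM, quasi-likelihood) in R 4.3.3, with DESeq2 1.42.0 as an alternative. The test script was tested on simulated data. Intervals were handled in Python 3.11.15 with pandas 2.3.3.

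The gained regions and the lists were chosen with earlier results of these data known. Regions named are the 10 strongest by mean score percentile, the 5 widest, the 5 lowest in score, those with another mark in all 3 libraries of one condition only, the 3 largest groups, 3 examples of each class just outside the rule, and the shared neighbours with the largest calls. The interferon, myeloid, granule and other marker gene lists foreseen were not used here, and no sequences are shown, because they need hg19.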

Additional observations from a re-analysis of the deposited data

How the results depend on the processing

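The number of gained regions was 597. It was 337 at a common lowest island score, 389 without those that had an untreated peak within 5 kb, and 317 when each region had to reach the common score in all 3 maltonis lists without new merging, an alternative chosen after seeing the data. It ranged from 737 to 923 when 1 H3K27ac library was left out, and the value of 923 came without maltonis 1. The strongest 75% of peaks, equal numbers of peaks, merging within 1000 bp and chromosome X left it between 503 and 682. The H3K4me3 difference at gained regions stayed positive under all alternatives run and was 16.7 to 25.7 regions with a library left out. The H3K9me3 difference stayed negative and was −17.3 to −9.67 with a library left out (exact permutation p of 0.1 to 0.2). It was −4.67 with the strongest 75% of H3K27ac peaks (exact permutation p = 0.1) and −6.33 at an overlap of 50% (exact permutation p = 0.4). H3K4me3 bases within 50 kb differed by 0.126 to 0.143 Mb and H3K9me3 bases by −0.466 to −0.0461 Mb with a library left out. For H3K9me3 read counts near gained regions, where edgeR called 0 and 0, DESeq2 called 5 with more and 1 with fewer reads, the length offset gave 2 with more, and the 100 kb window gave 2 with more. With a library left out the count was 0 in both directions. For H3K27ac neighbours with more reads (201), the length offset gave 83 and the 20 kb window 108, and leaving out a library gave 188 to 198. For those with fewer reads (109), the offset gave 9, the 20 kb window 40 and the 100 kb window 204, and leaving out a library gave 98 to 113. A smaller or larger window holds fewer or more regions by construction. The cause of the other changes was not tested.

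Replicate numbers did not pair the H3K27ac or H3K9me3 libraries, and the H3K4me3 lists hold no counts for this check: same-numbered libraries' deviations from their group means correlated at −0.0192 to 0.0297. With the replicate block the differences were 19.7 regions for H3K4me3 and −11.3 for H3K9me3, each with an exact sign-flip p of 0.25, the smallest 3 pairs allow, and edgeR with the block called 203 H3K27ac neighbours with more and 106 with fewer reads and 0 and 0 H3K9me3 neighbours. Peak lists limit the depth: a region missing from a list may hold reads below the calling limit, so absence of a peak is not absence of the mark.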

Other observations

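Chromosome X lies outside the rule. Of its 719 merged H3K27ac regions, 11 had a peak in all 3 maltonis lists and in no untreated list.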
